A study of Homo sapiens with 4 samples.

Results

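TH, DBH and SLC6A3 encode 3 defining proteins of catecholamine cells, and their H4K5la peaks were taken from 1 peak list of wild-type (WT) SH-SY5Y cells and 1 list of SH-SY5Y cells with a knockout of DNAJC12 (DNAJC12KO). SH-SY5Y is a human neuroblastoma line that is used as a model of catecholamine neurons. H4K5la is the lactylation of lysine 5 of histone H4, a mark that draws on lactate. It was profiled by chromatin immunoprecipitation and sequencing in 1 immunoprecipitated library per genotype, each with 1 input library made without the antibody. The labels name no drug treatment and no time point, and do not say whether the DNAJC12KO cells are 1 clone or a pool. Peak lists hold no expression, so the cell type was not checked against markers. The members are these 3 genes of 19866 protein-coding gene records, with every peak that overlapped the gene record or the 10 kb on either side of it. That gave 4 peaks, 1 of the 1943 in the WT list and 3 of the 2755 in the DNAJC12KO list. The genes were named because they carried a peak in one list or the other, so their peaks are a description. With 1 library per genotype, no difference between the genotypes has a replicate check, and none was tested.

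Dopamine is made from tyrosine in a pair of steps, of which the first, catalysed by tyrosine hydroxylase (TH), limits the rate. In noradrenergic cells dopamine beta-hydroxylase (DBH) then turns dopamine into noradrenaline inside vesicles, and the dopamine transporter (SLC6A3) takes released dopamine back up in dopamine neurons. DNAJC12, the knocked-out gene, encodes a J-domain protein that assists the folding of TH and of related hydroxylases. Acylation of histone H4 at this lysine is in general associated with active chromatin.

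The 3 genes divided between the lists: DBH had a peak in the WT list alone, and TH and SLC6A3 had peaks in the DNAJC12KO list alone. Each gene had 1 peak inside its record, downstream of its start, and TH had 1 more peak 8.75 kb beyond its far end. Thus 1 of 3 members had a WT peak, as did 8.57% of all protein-coding genes, and 2 of 3 had a DNAJC12KO peak, as did 10.8%. Counted inside the record alone, the members gave the same numbers, and the shares of all genes were 5.56% and 7.16%. Because the members were chosen on these peaks, nothing is read from those counts. A gene with peaks in 1 list and not in the other was the more frequent case: 888 genes (4.47%) had a peak in the WT list alone, 1332 (6.7%) in the DNAJC12KO list alone and 814 (4.1%) in both. Those 814 were 47.8% of the genes with a WT peak and 37.9% of the genes with a DNAJC12KO peak. A place without a peak is a place below the authors' threshold, not one shown to lack the mark.

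**Figure D1:**
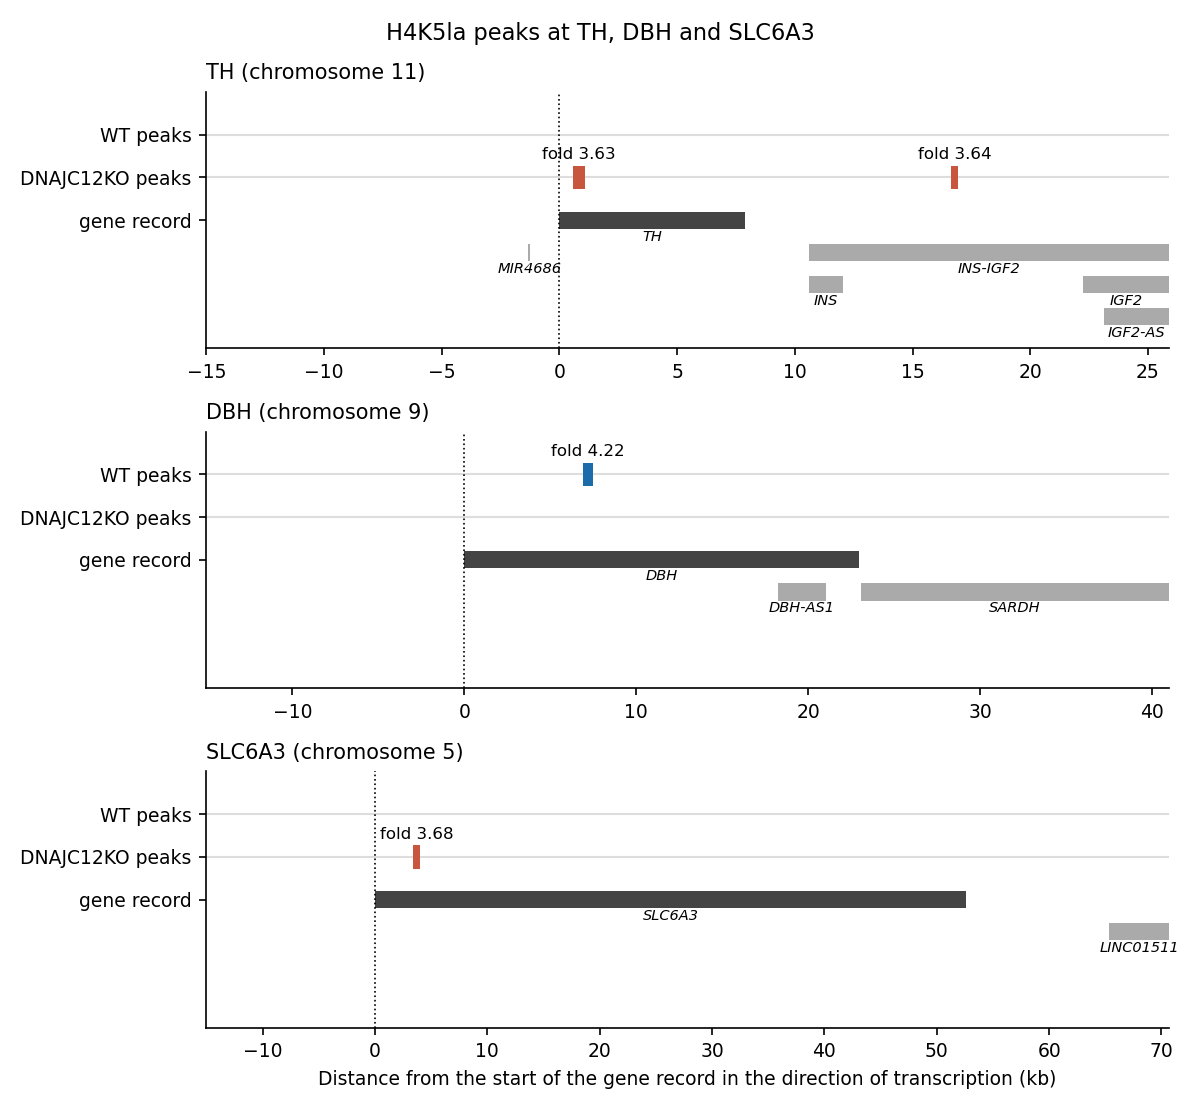
Peaks of the WT list (blue) and of the DNAJC12KO list (red) at TH, DBH and SLC6A3, with the authors' fold above each peak; dark bars are the gene records, grey bars other RefSeq records, and the x axis is the distance in kb from the start of the gene record in the direction of transcription. Each gene has a peak inside its record in 1 list, at a fold of 3.63 (TH), 4.22 (DBH) and 3.68 (SLC6A3), and none in the other list within the range shown.

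The promoter of DBH is shown because it is the one member promoter present in the RefSeq promoter table, and it marks where the DBH peak did not lie. TH and SLC6A3 are not in that table. The sequence covers 250 bases before to 50 bases after the start of DBH on the plus strand (GRCh38.p14, chr9:133636113-133636412), and its capitals mark TGACG, the core letters of a cyclic AMP response element.
DBH promoter: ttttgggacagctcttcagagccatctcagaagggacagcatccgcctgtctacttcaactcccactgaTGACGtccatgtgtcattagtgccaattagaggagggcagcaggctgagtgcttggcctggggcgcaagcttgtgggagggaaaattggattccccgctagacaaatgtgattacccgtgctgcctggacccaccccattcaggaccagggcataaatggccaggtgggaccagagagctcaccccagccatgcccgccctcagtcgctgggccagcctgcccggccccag
The TGACG match began 181 bases before the start. On both strands, 24.6% of the 35116 promoter windows in the table held TGACG. The complete palindrome TGACGTCA, which contains TGACG, was not in the DBH window and was in 1.85% of all windows. GGGCGG, the letters of a GC box, occurred 1 time, after the start, and in 45.0% of all windows. CANNTG, the E-box letters, occurred 3 times and in 68.7% of all windows. TATAAA (11.5% of all windows), TGANTCA (7.71%) and TAATTA (4.84%) were not found in it. The GC content of the DBH window was 59.3%, against a median of 58.7% over all windows, and it held 8 CpG pairs, against a median of 14. These matches describe letters and not binding.

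The nearest WT peak began 6.85 kb downstream of that DBH promoter window, and the nearest DNAJC12KO peak lay 65.3 kb away. Peaks over promoter windows were rare in both lists, with 33 of 35116 windows (0.094%) touched by a WT peak and 66 (0.188%) by a DNAJC12KO peak. Of the 60 genes in the catecholamine lists described below, 43 had a promoter sequence, and none of their windows was touched by a peak in either list.

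TH showed its peak closest to a gene start. The TH record spans chr11:2163929-2171815 (GRCh38) and is 7887 bp long, and TH is transcribed towards lower coordinates. The DNAJC12KO peak spanned chr11:2170721-2171235, from 580 to 1094 bp downstream of the start, and covered 6.53% of the record in its 515 bp. It therefore did not reach the start itself, and the gene table, which gives no exons, does not tell whether it lay over an exon or an intron. The authors' fold enrichment of the peak was 3.63, a linear ratio of the signal over the peak caller's background. It is taken here to include a small constant added to both. Its -log10 q was 1.32, a q-value of 0.0479. By -log10 q it was number 2150 of 2755 in the DNAJC12KO list, by fold number 1593 and by width number 1089. The TH peak was thus among the weaker ones of its list, which stops at a -log10 q of 1.01 and has a median of 1.48 and a median fold of 3.68. In the WT list the nearest peak was 231 kb from the TH peak, inside TSSC4 (chr11:2402654-2402932).

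The second DNAJC12KO peak counted with TH, at chr11:2154884-2155176, overlapped another gene record. It lay inside INS-IGF2, a readthrough record that joins the insulin gene and the insulin-like growth factor 2 gene, and 8.75 kb from the TH record. INS itself was 4.60 kb away, IGF2 5.32 kb and the antisense record IGF2-AS 6.22 kb. Its fold was 3.64 and its -log10 q 1.41, which made it number 1701 of the list. At 293 bp it had the smallest width in the DNAJC12KO list, shared with 12.8% of the peaks. The peak inside TH had 3 other records within 10 kb, the microRNA gene MIR4686 at 1.83 kb on the upstream side and INS and INS-IGF2 at 9.51 kb. With the DNAJC12KO list cut to the 1943 peaks of the WT list by -log10 q, the peak inside TH dropped out and the one in INS-IGF2 stayed, so TH then counted through its neighbour.

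DBH carried the strongest of the 4 peaks relative to its own list. The DBH record spans chr9:133636363-133659329, is 22967 bp long and lies on the plus strand. The WT peak spanned chr9:133643257-133643862, from 6894 to 7499 bp downstream of the start, and covered 2.64% of the record in its 606 bp. Its fold was 4.22 and its -log10 q 1.74, a q-value of 0.0182. By -log10 q it was number 438 of 1943 in the WT list, and by fold number 282, with 14.5% of WT peaks at that fold or above. Both values lay above the third quartile of the WT list, 4.04 for fold and 1.70 for -log10 q. No other gene record lay within 10 kb of the peak, so DBH is the one gene it touched or neighboured. The antisense record DBH-AS1 lies in the far part of the gene and was not reached. In the DNAJC12KO list the nearest peak was 57.8 kb from the DBH peak, at chr9:133701686-133701981 inside the neighbouring gene SARDH, the sarcosine dehydrogenase gene (fold 3.59, -log10 q 1.49).

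SARDH, the neighbouring gene beyond the far end of DBH, had peaks of both lists. The WT peaks nearest to the DBH record outside the 10 kb window were 48.5 kb (fold 4.41, -log10 q 2.13) and 49.4 kb (fold 3.90) from it, and the DNAJC12KO peaks were 42.4 kb and 68.7 kb (fold 3.43) from it. The WT and DNAJC12KO peaks in SARDH did not overlap. Widening the window around DBH from 10 to 50 kb gave 3 WT peaks and 1 DNAJC12KO peak, so its place in the WT list alone ended there.

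SLC6A3 is the longest of the 3 genes, and its peak covered the smallest share of a record. The SLC6A3 record spans chr5:1392794-1445440, is 52647 bp long, and is transcribed towards lower coordinates. The DNAJC12KO peak spanned chr5:1441436-1442035, from 3405 to 4004 bp downstream of the start, and covered 1.14% of the record in its 600 bp. Its fold was 3.68 and its -log10 q 1.40, a q-value of 0.0399. It was number 1755 of 2755 in the DNAJC12KO list by -log10 q and number 1391 by fold, near the middle of that list by fold, and number 724 by width. No other gene record lay within 10 kb of it. In the WT list the nearest peak was 77.8 kb from it, inside LPCAT1 (chr5:1519877-1520156, fold 4.55), and 2 more WT peaks lay in CLPTM1L on the other side of the gene, 55.7 and 72.9 kb from the SLC6A3 record.

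**Figure D2:**
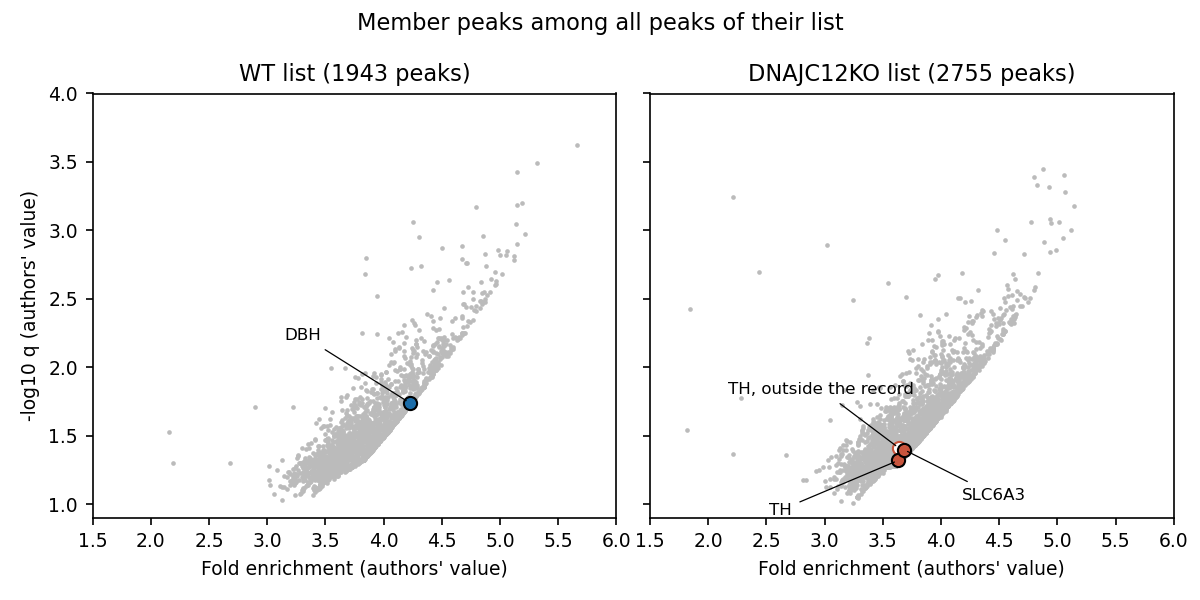
Authors' fold enrichment (x axis, linear ratio) and -log10 q (y axis) of every peak of the WT list (left) and the DNAJC12KO list (right); grey points are all peaks, filled points the peaks inside DBH, TH and SLC6A3, and the open point the peak beyond the end of TH. DBH lies above most WT peaks at a fold of 4.22 and a -log10 q of 1.74, while the 3 DNAJC12KO peaks lie at 1.32 to 1.41; 3 WT and 5 DNAJC12KO peaks fall outside the plotted range.

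All 4 peaks rested on a small signal. Under the Poisson formula of the peak caller, fold and -log10 p imply a pileup of 8.40 fragments over a background of 1.59 at TH, 8.50 over 1.61 at the peak in INS-IGF2, 8.45 over 1.57 at SLC6A3 and 9.04 over 1.38 at DBH. The medians over the lists were 9.28 over 1.64 (WT) and 9.44 over 1.76 (DNAJC12KO). In that formula the fold is the ratio of pileup to background after the same small constant, a pseudocount, is added to each. The plain ratio of the printed values is therefore larger than the fold. These are approximate values in fragments after the authors' scaling, since values of broad peaks are averages over the peak. When peaks had to reach a -log10 q of 2, no member had one in either list, while 1.3% (WT) and 1.5% (DNAJC12KO) of all protein-coding genes did. With a fold of at least 4, DBH kept its WT peak and the other members lost theirs, and the shares of all genes were 3.3% and 2.68%.

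The lists did not overlap at any of the 3 genes. Under the looser rule of a peak in the record or 10 kb around it, sharing was the less frequent case. Of all protein-coding genes with a peak in either list, 26.8% had one in both. None of the 4 peaks had a peak of the other genotype within 10 kb, and the distances ranged from 57.8 kb at DBH to 231 kb at TH. At the 10 kb limit of the member rule, the peak just inside was the one in INS-IGF2, 8.75 kb from TH, and the peak just outside was the DNAJC12KO peak 42.4 kb from DBH. Within 500 kb of the 3 genes, the 27 WT and 28 DNAJC12KO peaks overlapped at 2 places. One was in TERT, the telomerase reverse transcriptase gene, 99.2 kb from SLC6A3, where the WT peak (chr5:1293103-1293550, fold 4.43) lay inside the DNAJC12KO peak (chr5:1293067-1293775, fold 3.84). The other was in VAV2, 331 kb from DBH, with an overlap of 95 bp (fold 3.63 for the WT peak and 3.49 for the DNAJC12KO peak). Near TH there was none. The share of overlapping peaks over the whole lists is not given here, so nothing is read from the 2 places.

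What the 3 member peaks inside genes had in common beyond the rule was a place in the early part of the gene. Their centres lay 10.6% (TH), 31.3% (DBH) and 7.04% (SLC6A3) of the way along the record from the start. Over 15843 protein-coding genes with 1 known strand, pairs of a gene and a peak centred inside it were counted. A peak inside overlapping records thus counts for each of them. The median centre lay 62.9% of the way along in the WT list (1254 pairs) and 67.5% in the DNAJC12KO list (1665 pairs). A centre within 1 kb of the start, as at TH, was found for 1.92% of the DNAJC12KO pairs. One within 5 kb, as at SLC6A3, was found for 12.6% of them. One within 10 kb, as at DBH, was found for 31.1% of the WT pairs. Each of these distances was matched to 1 member. A centre in the first 1/3 of the record, as at all 3 members, was found for 23.6% of the WT and 21.9% of the DNAJC12KO pairs. With 3 genes this is a description and was not tested.

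The other shared feature was a place near a chromosome end. SLC6A3 lies 1.37 Mb, TH 2.09 Mb and DBH 4.67 Mb from the end of the annotated span of its chromosome, on the short arms of chromosomes 5 and 11 and the long arm of chromosome 9. Peaks were crowded in such places in both genotypes. Of the peaks on chromosomes 1 to 22, X and Y, 48.8% (WT) and 43.7% (DNAJC12KO) lay within 5 Mb of an annotated end, where 13.4% of the protein-coding genes lie. Of the 2659 genes there, 26% had a WT peak in the record or 10 kb around it and 28.7% a DNAJC12KO peak. Of the 17207 other genes, 5.88% and 8.03% did. The members were chosen for having a peak, and of the 3034 genes with a peak in either list 34.2% lay within 5 Mb of an end. The median distance of those genes was 12.0 Mb, against 27.4 Mb for all protein-coding genes. The distance of 5 Mb was set after the positions of the members were known.

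**Figure D3:**
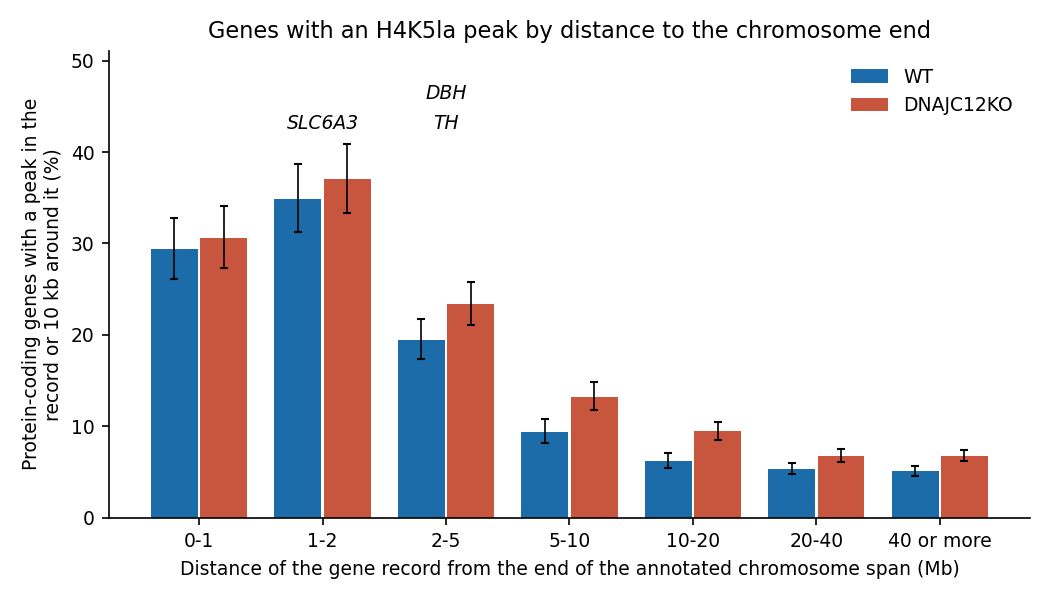
Share of protein-coding genes with a peak in the record or 10 kb around it (y axis, percent) by the distance of the gene from the end of the annotated chromosome span (x axis, Mb), in the WT list (blue) and the DNAJC12KO list (red); error bars are exact binomial (Clopper-Pearson) 95% intervals, which treat genes as independent although neighbours can share a peak. The share is 34.9% (WT) and 37.0% (DNAJC12KO) at 1 to 2 Mb, the bin of SLC6A3, 19.5% and 23.4% at 2 to 5 Mb, the bin of TH and DBH, and 5.08% and 6.79% at 40 Mb or more.

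The surroundings of each gene held peaks of both lists, also where the gene itself had none. Within 500 kb of TH there were 5 WT and 11 DNAJC12KO peaks, within 500 kb of DBH 13 and 9, and within 500 kb of SLC6A3 9 and 8. The median over all protein-coding genes was 0 WT and 1 DNAJC12KO peaks, and over genes within 5 Mb of an annotated end it was 4 and 6. More WT peaks than at DBH were found around 3.36% of genes, and more DNAJC12KO peaks than at TH around 5.59%. These counts include the peaks for which the members were chosen. They were 2 of the 11 at TH, 1 of the 13 at DBH and 1 of the 8 at SLC6A3. All other genes were not chosen in this way, so the shares are a description. SLC6A3 had nearly as many DNAJC12KO as WT peaks around it, although its own peak was in the DNAJC12KO list.

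Genes with the most similar pattern were those with the same number of peaks in each list and the nearest rank of the best peak by -log10 q, compared over both lists. For TH, INS and INS-IGF2 came first with a difference of 0 because they share the same peaks, followed by PHB2 on chromosome 12, which differed by 0.472% of the list's ranks. For DBH they were YKT6 (0.206%), IL3 (0.36%) and FOXK2 (0.721%). For SLC6A3 they were TEP1 (difference of 0), IDH2 and ZNF710 (0.0363% each). The candidates numbered 188 for TH, 750 for DBH and 1085 for SLC6A3, so close ranks are common.

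The wider pathway was read from 6 lists with 60 genes in all, of which TH, DBH and SLC6A3 are 3. The 3 were chosen for their peaks, so the counts are given for the other 57. Of these, 7 had a WT peak in the record or 10 kb around it (12.3%), as did 8.57% of all protein-coding genes, and 3 had a DNAJC12KO peak (5.26%), as did 10.8%. In either list 10 of the 57 had one (17.5%), against 15.3% of all protein-coding genes, and none had one in both. With the 3 members the counts were 8 WT, 5 DNAJC12KO and 13 in either list, again with none in both. Among all protein-coding genes with a peak in either list, 26.8% had one in both.

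Synthesis, transport and breakdown of catecholamines gave 11 genes. Of the 8 besides TH, DBH and SLC6A3, 2 (25%) had a peak in either list, PNMT and CYB561, where 15.3% of all protein-coding genes did. With 8 genes this is a description and was not tested. PNMT, which methylates noradrenaline to adrenaline, had 3 DNAJC12KO peaks near its record and none inside it. The strongest had a fold of 4.30 and a -log10 q of 2.14, lay 4.54 kb away inside PGAP3, and was number 166 of the list. CYB561, a cytochrome that supplies electrons to vesicles for DBH, was counted through a WT peak 4.33 kb away inside TANC2 (fold 3.31), while the nearest DNAJC12KO peak, at 10.7 kb, fell just outside the window. Neither PNMT nor CYB561 had a peak inside its record. DDC, the decarboxylase that completes dopamine synthesis, the vesicle transporters SLC18A1 and SLC18A2, the noradrenaline transporter SLC6A2 and the monoamine oxidases MAOA and MAOB had no peak in either list, the nearest being 246 kb away, at DDC in the DNAJC12KO list.

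Among 9 genes of the tetrahydrobiopterin cofactor and of the hydroxylases, GCHFR alone had a peak in either list, where 15.3% of all genes did. GCHFR encodes the feedback regulator of GTP cyclohydrolase, and its DNAJC12KO peak (chr15:40767374-40767666, fold 3.57, -log10 q 1.32) also overlapped the record of DNAJC17, so it cannot be given to one of them. GCH1, PTS, SPR, QDPR, PCBD1, TPH1, TPH2 and DNAJC12 had none, with nearest peaks from 106 kb (PCBD1, DNAJC12KO list) to 14705 kb (TPH2, WT list). The serotonin transporter gene SLC6A4 had none either. With no WT peak at DNAJC12, its absence in the DNAJC12KO list is no check of the knockout.

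Of 15 receptor genes, 3 were counted in either list, where 15.3% of all genes were, each through a peak outside its record. DRD4, a dopamine receptor gene, had a DNAJC12KO peak 3.49 kb away inside DEAF1 (fold 3.75). ADRA2A, an alpha-2 adrenergic receptor gene, had a WT peak 4.59 kb away (fold 3.72), and ADRA2B had a WT peak 7.25 kb away inside ASTL (fold 3.50). Of 13 transcription factor genes of catecholamine neurons, LMX1B and EN2 (15.4%) had WT peaks and no DNAJC12KO peak. Of all protein-coding genes, 8.57% had a WT peak, 10.8% a DNAJC12KO peak and 4.47% a peak in the WT list alone. The LMX1B peak lay inside the gene (fold 3.94), and EN2 is described in the closing section. The other 11 had none in either list, both factors of midbrain dopamine neurons (NR4A2, LMX1A, FOXA2, PITX3 and EN1) and factors known for sympathetic cells such as PHOX2A, HAND2 and GATA3. Of 11 genes of dense core vesicles, 2 (18.2%) had a peak in either list: CHGA, the chromogranin A gene, was counted through a WT peak 6.11 kb away (fold 3.89) and VGF through a WT peak 7.79 kb away inside NAT16 (fold 3.40).

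**Figure D4:**
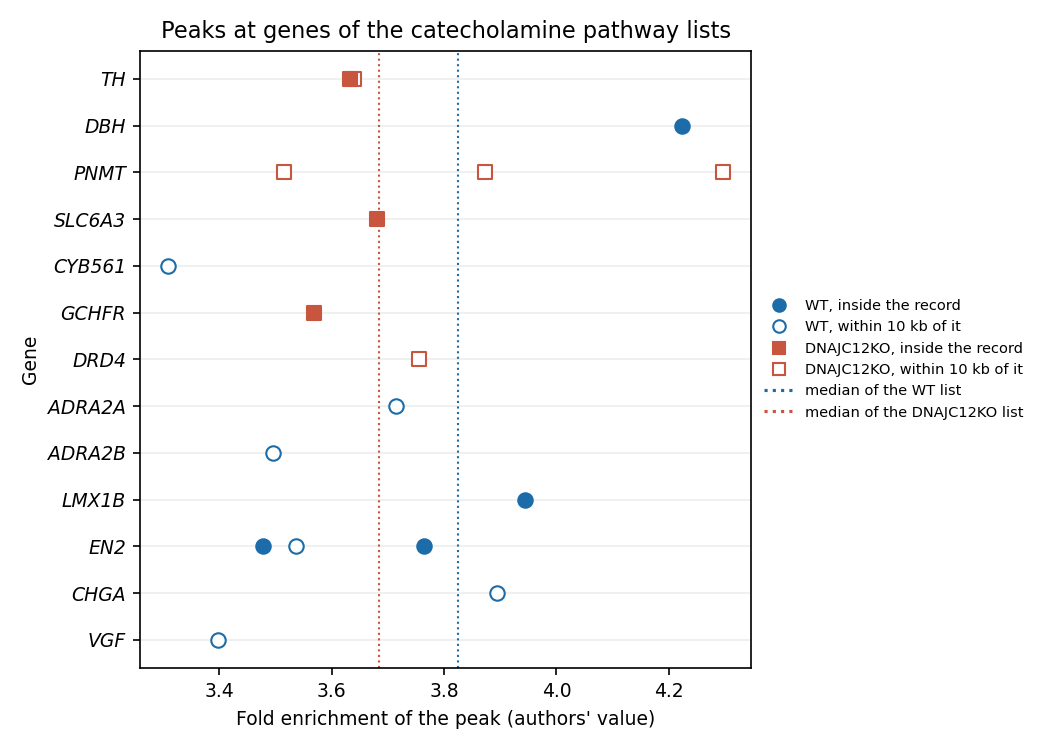
Authors' fold enrichment (x axis, linear ratio) of each peak in or within 10 kb of the 13 genes of the pathway lists with a peak (y axis); blue circles are WT peaks, red squares DNAJC12KO peaks, filled where the peak overlaps the gene record and open where it lies outside, and dotted lines are the medians of the lists (3.82 WT, 3.68 DNAJC12KO). DBH (4.22) and the strongest of the 3 peaks near PNMT (4.30) are the peaks above a fold of 4, and no gene has peaks of both colours.

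Beyond the members, 4 of the 57 pathway genes lay within 5 Mb of an annotated end. DRD4 and EN2 had a peak in 1 list, and ADRA1D and ADRA2C had none in either. Of all protein-coding genes that near an end, 39% had a peak in either list. Of the other 53 pathway genes 8 had a peak, and of all protein-coding genes farther from an end 11.6% did. The part of this position in where the peaks lay was not tested.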

How the data were processed

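The files were 1 broad peak list per genotype, which the sample descriptions name for both the input and the immunoprecipitated library. Each was taken as the list of the immunoprecipitated library. The submitters' processing notes name MACS2 2.2.6 and the build hg38. For the aligner, filters, calling options and control library, the entry is "not given in the sources used here". The authors deposited per peak a fold enrichment (a linear ratio) and the -log10 p and -log10 q, averaged over the peak. The labels' protocols also name spike-in chromatin and a control IgG, and whether spike-in scaling was applied is not stated there. These lists carry no read counts, so the depth is unknown, and a deeper library would give more peaks. The number of columns of other samples was 0.

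Gene records were those of RefSeq on GRCh38.p14 (58961 of 59792 records, those on chromosomes 1 to 22, X and Y, 19866 of them protein-coding). All 60 pathway genes matched by symbol. Some genes first listed are not reported here and were left out of the lists and their counts. The strand of DBH came from the RefSeq promoter table, and those of TH and SLC6A3 are textbook knowledge. Overlap meant at least 1 bp. Ranks include unplaced sequences, and tied peaks share the better rank. The distance to a chromosome end is that to the outermost gene record. Python 3.11.15, pandas 2.3.3, numpy 2.4.6, scipy 1.17.1 and matplotlib 3.10.9 were used. The counting and the pileup formula were tested on simulated data. Alternatives were windows of 0, 3 and 50 kb, a -log10 q of at least 2 and a fold of at least 4. Further alternatives were lists of equal length and at least 50% of the peak inside the window.

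The members, the lists and the tests were chosen with earlier results of these data known. Named genes were the 3 members, every record within 10 kb of a member peak, every pathway gene with a peak, and up to 3 genes of similar pattern per member. Pathway genes without a peak, genes holding nearby peaks, TERT and VAV2 were named after their values were seen.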

Additional observations from a re-analysis of the deposited data

How the results depend on the processing

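With the gene record alone, TH had 1 DNAJC12KO peak, and the 60 pathway genes, members included, gave 3 WT and 3 DNAJC12KO genes (all protein-coding genes: 5.56% and 7.16%). With a window of 3 kb, TH had 1 DNAJC12KO peak and the pathway lists 3 WT genes (all genes: 6.49% WT, 8.26% DNAJC12KO). With 50 kb, DBH had 3 WT and 1 DNAJC12KO peaks, and the pathway lists 9 DNAJC12KO genes (all genes: 15.8% WT, 20.8% DNAJC12KO). With a -log10 q of at least 2, the peaks at DBH (WT), TH and SLC6A3 (DNAJC12KO), the members in each list and the WT pathway genes all numbered 0, and 1 DNAJC12KO pathway gene, PNMT, was left. With a fold of at least 4, TH, SLC6A3 and the DNAJC12KO members numbered 0, and the pathway lists had 1 gene each, DBH (WT) and PNMT (DNAJC12KO). With lists of equal length, TH had 1 DNAJC12KO peak. By fold, 14.5% of WT peaks were at or above the DBH peak, against 22.5% by -log10 q. Narrower windows and stricter thresholds admit fewer peaks by construction. The other settings moved no count by more than 1.5 times. No paired analysis was possible because each genotype has 1 immunoprecipitated library and the labels share the single replicate number 1. The unknown depth limits every statement on a missing peak.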

Other observations

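Among the 60 pathway genes, 2 others had several peaks in one list and none in the other. The share of all genes with several such peaks is not given here. Counting any number of peaks, 4.47% of all protein-coding genes had them in the WT list alone and 6.7% in the DNAJC12KO list alone. EN2, which encodes a homeobox factor of midbrain dopamine neurons, had 3 WT peaks within 10 kb and no DNAJC12KO peak. The peaks lay inside the gene (chr7:155458958-155459515, fold 3.76, and chr7:155460995-155461824, fold 3.48) and 1.91 kb from it in the neighbouring record EN2-DT (fold 3.54). The nearest DNAJC12KO peak was 61.3 kb from EN2, and within 500 kb the DNAJC12KO list had 11 peaks and the WT list 7.

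PNMT had 3 DNAJC12KO peaks within 10 kb and no WT peak. They lay on both sides of the gene, at 4.58 kb in STARD3 (fold 3.52), at 2.67 kb outside any record (fold 3.87) and at 4.54 kb in PGAP3 (fold 4.30). The nearest WT peak was 346 kb from PNMT, and within 500 kb the DNAJC12KO list had 5 peaks and the WT list 1. These genes were singled out after their values were seen, and none of these differences has a replicate check.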
